A study of Mus musculus with 10 samples.

Results

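The 35 genes described here carry glucose into the cell, break it down to pyruvate and lactate, store it as glycogen or pass it to the pentose phosphate pathway. They were chosen by symbol, for their known roles and with earlier results of these data known, from the 56832 genes of a count table. The table holds heart cells that were sorted after a myocardial infarction and labelled as cardiomyocytes. All 35 were found in the table and 34 passed the filter on low counts. Aldoc, an aldolase known from brain, did not pass it, with mean levels of 0.366 CPM in GFP- and 0.501 CPM in GFP+ libraries (CPM, the usual counts of a gene relative to the scaled library total).

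The cells came from 5 Sprr1a-GFP mice, all tagged Hetz in the library titles, that had an infarction at 12 weeks of age and were studied 5 days later. Hearts were digested by Langendorff perfusion and the freed cells were sorted by flow cytometry into GFP+ cells, labelled as border zone cardiomyocytes, and GFP- cells, labelled as remote zone cardiomyocytes. Every mouse gave 1 library of each kind, so all 10 libraries share the genotype and the infarction, and no uninjured or reporter-free heart is among them. By the titles, each GFP+ library joins sorted fractions that were negative and positive for DAPI, a DNA dye that enters leaky cells, whereas the GFP- libraries hold only the DAPI-negative fraction. The DAPI gate and the GFP group can therefore not be told apart in any comparison below. The reporter is named for Sprr1a, and the Sprr1a transcript was higher in GFP+ libraries by 6.64 ± 0.75 on the log2 scale (SE, n = 5 mice, edgeR quasi-likelihood test with the mouse as a block, adjusted p = 0.0201).

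The healthy adult heart burns mostly fatty acids and takes up glucose through the insulin-regulated carrier GLUT4, encoded by Slc2a4. Many glycolytic steps have a form that is abundant in mature striated muscle and another that is more widespread or prominent in fetal and growing tissue, such as GLUT1 (Slc2a1) against GLUT4 or the platelet-type phosphofructokinase (Pfkp) against the muscle type (Pfkm). A heart under stress is known to lean more on glucose and to bring back parts of the fetal programme.

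Libraries held between 12244373 and 38879965 counts, of which 29899 to 214362 fell on the 35 genes, the fewest in the GFP+ library of mouse 21A7. Mitochondrial transcripts took 9.2% to 61.9% of the counts in GFP- and 35.7% to 91.2% in GFP+ libraries, and the TMM scaling factors that correct for such differences ran from 0.241 to 3.31. By their identifiers, mice 17C1 and 17C2 form one series (17C) and mice 21A4, 21A5 and 21A7 another (21A), with titles worded differently. Values within each series are given beside the pooled ones. The fit within the 17C mice rests on 2 mice only. It called 13.6% of all genes tested there at an adjusted p under 0.05 in edgeR. The fit within the 21A mice called 6.72% and the pooled fit 0.858%. All 10 of the cardiomyocyte markers were detected in every library, with summed levels of 3780 to 45900 CPM in GFP- and 9790 to 33800 CPM in GFP+ libraries. The lowest of these, 3780 CPM, was the GFP- library of mouse 21A7, which also had the highest fibroblast marker sum, 17400 CPM. Fibroblast marker sums ran from 214 to 17400 CPM in GFP- and from 444 to 7570 CPM in GFP+ libraries, and all 10 markers were detected overall. Macrophage sums spanned 26.2 to 714 CPM and 21.7 to 324 CPM in the same order, endothelial sums 95.6 to 729 and 55.4 to 394 CPM, and mural sums 127 to 441 and 114 to 182 CPM. Each of the 10 macrophage, 10 endothelial and 8 mural markers was detected in at least 1 library. Neutrophil markers summed to at most 18.2 CPM in GFP- and 9.71 CPM in GFP+ libraries, with Retnlg at 0 in all of the latter, and red cell markers to at most 9.74 and 86.7 CPM. The sum of 6 mesothelial markers was higher in GFP+ libraries of 5 of 5 mice (0.718 to 161 CPM against 87.7 to 357 CPM). The lymphocyte markers Cd3e, Cd3g and Ms4a1 were at 0 in all libraries. In bulk RNA of this kind, fewer cells of a type and less RNA per cell cannot be told apart. Every tested member was also fitted with libraries scaled to sarcomere genes, with a score of non-myocyte markers as a covariate, and without mitochondrial genes. Without mitochondrial genes the same number of members was called, with log2 fold changes of 1.47 for Slc2a1 (edgeR adjusted p = 0.0458) and 1.84 for Pfkp (adjusted p = 0.0209).

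Of the 34 tested members, 2 were higher in GFP+ cells and 0 were lower at an adjusted p under 0.05, in a fit across all 12115 tested genes that compared the libraries within each mouse. The same fit called 0.685% of all tested genes higher and 0.173% lower. The called members were Slc2a1 and Pfkp, and both were also the only members whose 5 GFP+ values all lay above the 5 GFP- values, a separation seen for 1.54% of all tested genes. At an unadjusted p under 0.05, 11 members were higher and 0 lower, against 7.74% and 7.59% of all tested genes. The median log2 fold change of the tested members was 0.35, beside -0.04 for all tested genes, and 10 members were higher in 5 of 5 mice while 0 were lower in 5 of 5 (9.14% and 8.02% of all tested genes). The members were chosen with earlier results of these data known, so these shares are described without a test. Median differences over the members were -0.40 (mouse 17C1) and -0.04 (17C2), against 0.65 (21A4), 0.94 (21A5) and 0.61 (21A7), thus below 0 in both 17C mice and above 0 in all 21A mice.

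**Figure D1:**
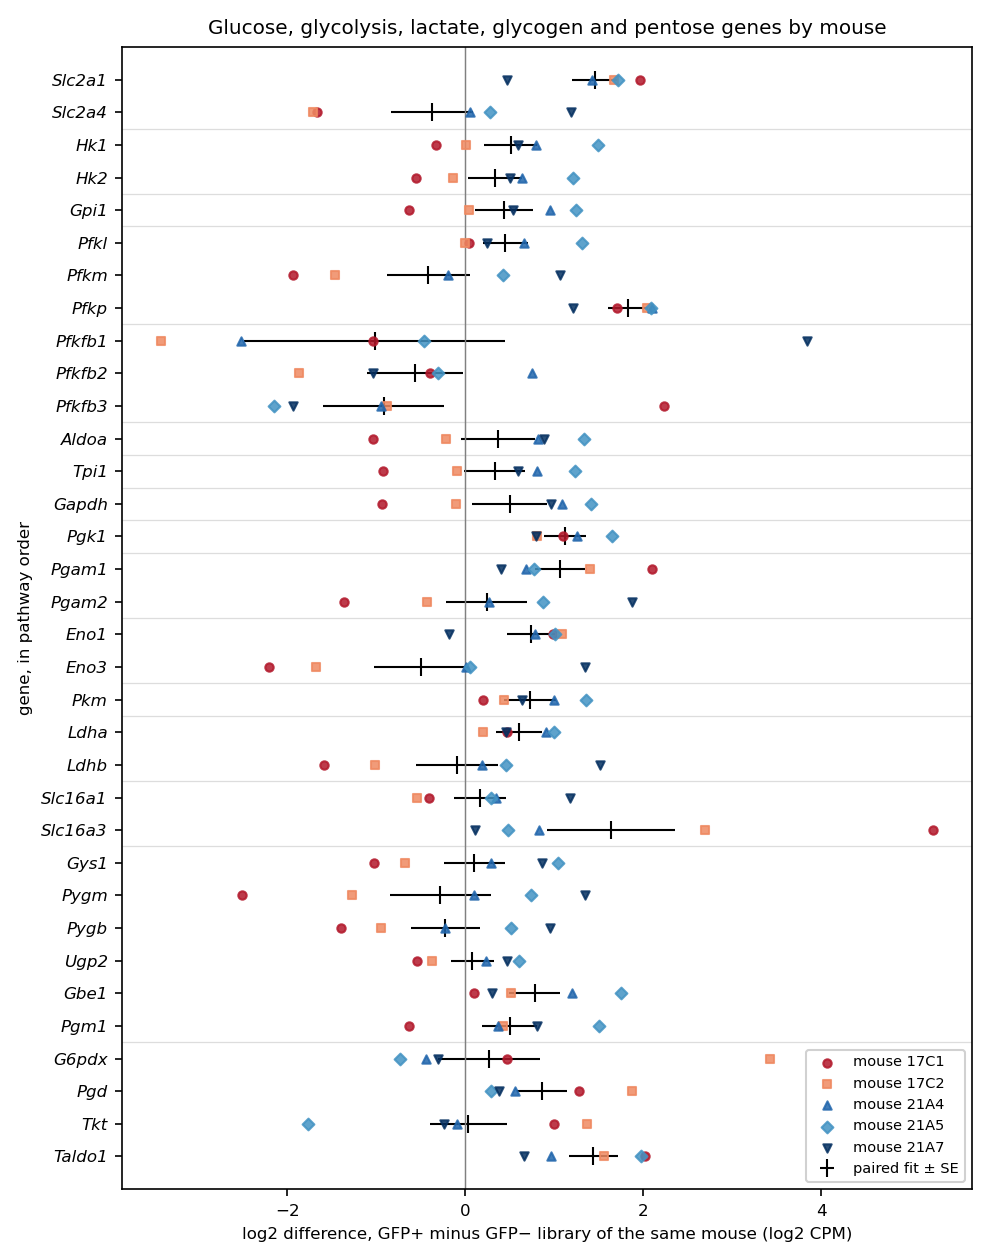
Difference in log2 CPM between the GFP+ and GFP- library of the same mouse (horizontal axis) for each of the 34 tested members in pathway order (vertical axis), 1 point per mouse, with 17C mice in reds, 21A mice in blues, and a bar for the log2 fold change of the paired fit with its SE. Slc2a1, Pfkp, Pgk1 and Taldo1 have all 5 points to the right of 0, whereas Slc2a4, Pfkm, Eno3, Ldhb and Pygm have the 17C mice on the left and most 21A mice on the right.

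The 250 bases before the start sites of the 4 members with the smallest adjusted p are shown because these genes were higher in GFP+ libraries of 5 of 5 mice and 2 of them passed the test. They are taken from RefSeq on the build GRCm38.p6, an earlier build than the one used for counting, and read 5' to 3' on the strand of the gene. Capitals mark ACGTG or GCGTG on either strand, the core recognised by hypoxia-inducible factors and several related proteins. CACGTG, a longer box that contains this core, was searched as well. The windows lie at chr4:119108495-119108744 on the plus strand (Slc2a1), chr13:6648772-6649021 on the minus strand (Pfkp), chrX:106186850-106187099 on the plus strand (Pgk1) and chr7:141391910-141392159 on the plus strand (Taldo1), each in the promoter region directly upstream of the annotated gene start.
Slc2a1: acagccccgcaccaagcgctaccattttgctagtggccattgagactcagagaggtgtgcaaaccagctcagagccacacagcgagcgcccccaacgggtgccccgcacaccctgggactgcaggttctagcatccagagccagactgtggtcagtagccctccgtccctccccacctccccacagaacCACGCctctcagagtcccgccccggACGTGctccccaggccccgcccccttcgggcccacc
Pfkp: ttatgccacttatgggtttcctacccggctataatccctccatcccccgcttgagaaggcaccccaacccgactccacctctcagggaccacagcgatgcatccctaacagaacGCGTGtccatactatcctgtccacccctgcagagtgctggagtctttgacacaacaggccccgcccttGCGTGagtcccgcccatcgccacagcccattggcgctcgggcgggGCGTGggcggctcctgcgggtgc
Pgk1: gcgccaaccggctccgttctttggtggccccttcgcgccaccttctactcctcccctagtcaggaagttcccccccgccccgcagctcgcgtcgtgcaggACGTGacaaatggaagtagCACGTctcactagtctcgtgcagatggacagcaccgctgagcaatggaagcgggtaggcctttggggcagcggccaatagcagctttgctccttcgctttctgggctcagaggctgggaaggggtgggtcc
Taldo1: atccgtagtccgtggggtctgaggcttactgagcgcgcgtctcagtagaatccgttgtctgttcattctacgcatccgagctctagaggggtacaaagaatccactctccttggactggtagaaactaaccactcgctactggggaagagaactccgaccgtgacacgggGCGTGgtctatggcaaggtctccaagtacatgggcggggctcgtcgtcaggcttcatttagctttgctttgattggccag
The core occurred 2 times in the Slc2a1 window, 3 times in the Pfkp window, 2 times in the Pgk1 window and 1 time in the Taldo1 window, and CACGTG occurred in none of the 4. Over the 34 members with an entry, 25 windows held the core (73.5%), against 57.4% of the 9375 tested genes with an entry and 38.6% of all 27025 genes. Only the first listed window of each gene was searched, and some members had several, such as Pfkm with 4. The CACGTG box was in 4 member windows (11.8%), 8.69% of those of tested genes and 6.05% of all. The median GC content was 59.4% for members, 60.4% for tested genes and 52.0% for all genes. The motifs are matches of letters only, and binding was not measured. Slc2a4 had no entry in the promoter table.

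Glucose enters the myocyte mainly through GLUT1, a carrier present at the cell surface at all times, and GLUT4, which insulin and contraction bring to the surface. Slc2a1 stood at 14.0, 13.1, 8.28, 13.4 and 18.6 CPM in the GFP- libraries of 17C1, 17C2, 21A4, 21A5 and 21A7, and at 54.8, 42.0, 22.4, 44.0 and 25.8 CPM in their GFP+ libraries. All 5 GFP+ values were above all 5 GFP- values, the closest being 22.4 CPM (GFP+ of 21A4) and 18.6 CPM (GFP- of 21A7). The log2 fold change was 1.46 ± 0.26 (SE, n = 5 mice, 2.75-fold), with an adjusted p of 0.0479 in the paired edgeR test. It was 1.84 (adjusted p = 0.000173) within the 17C mice and 1.23 (adjusted p = 0.0332) within the 21A mice, and the difference between the series had an adjusted p of 0.398 (edgeR interaction test). The call is close to the threshold: without the pairing the adjusted p was 0.12, and leaving out 17C1, 17C2, 21A4 or 21A5 gave adjusted p values of 0.0545, 0.175, 0.262 and 0.217 at log2 fold changes of 1.34, 1.41, 1.46 and 1.37. Without 21A7, whose GFP- library had the least cardiomyocyte and the most fibroblast transcript, it was 1.70 (adjusted p = 0.0283).

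Slc2a4 did not pass the test over all mice, with a log2 fold change of -0.37 ± 0.46 (SE, n = 5 mice, edgeR adjusted p = 0.763). Its GFP- levels were 158, 176, 61.1, 36.4 and 6.58 CPM in the mouse order above, and its GFP+ levels 49.9, 54.0, 63.3, 44.0 and 15.2 CPM. Both 17C mice had less of it in GFP+ cells and the 21A mice had equal or higher levels, and the groups overlapped. Within the 17C mice it was lower (log2 fold change -1.67, edgeR adjusted p = 0.000122), within the 21A mice it did not pass (0.51, adjusted p = 0.262), and the difference between series did pass (-2.18, interaction adjusted p = 0.0236). The 5 GFP- levels had the same order as the cardiomyocyte marker sums of those libraries, which were 41600, 45900, 30400, 17900 and 3780 CPM. How many of all tested genes had this order was not counted, and a link was not tested.

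As a share of the pair per length of exon, Slc2a1 made up 25.4% ± 28.1 of the GFP- and 46.9% ± 13.6 of the GFP+ signal (SD, n = 5). The GFP- shares were 8.08%, 6.85%, 11.9%, 26.7% and 73.7% and the GFP+ shares 52.1%, 43.6%, 26.0%, 49.8% and 62.8%, so the share was higher in GFP+ cells of 4 of 5 mice and lower in 21A7. The log2 ratio of Slc2a1 to Slc2a4 within a library was higher by 1.82 ± 1.77 in GFP+ cells (SD, n = 5). An exact sign-flip test within mice gave p = 0.125 and an exact permutation test of the 252 regroupings, which ignores the pairing by mouse, p = 0.119. Both were two-sided, and neither passed. The smallest p these tests can reach are 0.0625 and 0.00794. Shifts averaged 3.51 over the 17C mice and 0.70 over the 21A mice.

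Hexokinases trap glucose by phosphorylation. Hk1, the widespread form, stood at 86.1, 97.7, 72.9, 68.6 and 42.1 CPM in GFP- and 68.4, 98.7, 127, 193 and 63.5 CPM in GFP+ libraries. Hk2, the insulin-responsive form of muscle and fat, stood at 187, 213, 127, 103 and 47.4 CPM in GFP- and 127, 194, 197, 239 and 67.4 CPM in GFP+ libraries. For both genes the GFP+ levels were higher in the 21A mice and equal or lower in the 17C mice, and the groups overlapped. Neither passed the paired edgeR test, with log2 fold changes of 0.51 ± 0.30 (Hk1, adjusted p = 0.469) and 0.33 ± 0.30 (Hk2, adjusted p = 0.661, SE, n = 5 mice each). Their proportion was similar in both fractions, where Hk1 made up 29.5% ± 5.83 of the pair per length in GFP- and 32.1% ± 5.76 in GFP+ cells (SD, n = 5). The log2 ratio of Hk1 to Hk2 was higher in 5 of 5 mice, but by only 0.18 ± 0.08 (SD, range 0.09 to 0.28), the narrowest spread of the 11 form ratios. The exact sign-flip p was 0.0625, the smallest that 5 pairs allow, and the exact permutation p, which ignores the pairing, was 0.468. Gpi1, the isomerase that follows, was at 174.7 ± 57.0 CPM in GFP- and 237.6 ± 85.4 CPM in GFP+ cells (SD, n = 5) and did not pass (log2 fold change 0.43 ± 0.32, edgeR adjusted p = 0.581).

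Phosphofructokinase commits sugar phosphate to glycolysis and is a tetramer of subunits from 3 genes, of which Pfkm is the muscle, Pfkl the liver and Pfkp the platelet type. Pfkp stood at 21.2, 24.5, 22.5, 29.2 and 21.2 CPM in the GFP- libraries of 17C1, 17C2, 21A4, 21A5 and 21A7, and at 69.3, 101, 96.4, 124 and 49.2 CPM in the GFP+ libraries. The lowest GFP+ value, in 21A7, was still above the highest GFP- value, 29.2 CPM in 21A5. The log2 fold change of 1.83 ± 0.23 (SE, n = 5 mice, 3.56-fold) had the smallest adjusted p of the members, 0.0238 in the paired edgeR test, and Pfkp was the only member called without the pairing (adjusted p = 0.0466, a call made for 0.0825% of all tested genes). The change was the same size in both series, 1.89 (edgeR adjusted p = 5.17e-05) within the 17C and 1.82 (adjusted p = 0.00714) within the 21A mice, with a difference of 0.07 (interaction adjusted p = 0.932). Leaving out 17C2, 21A4 or 21A5 raised the adjusted p to 0.109, 0.226 and 0.119 at log2 fold changes of 1.79, 1.76 and 1.75, and without 21A7 the change was 1.98 (adjusted p = 0.018). In the annotation used for lengths, Pfkp shares 748 exonic bases with Pitrm1 on the opposite strand, and the strand setting of the counting is not given in the sources used here, so reads of the 2 genes cannot be told apart there. Pitrm1 itself had 140 to 1494 counts per library.

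Pfkm, the most abundant of the 3 per length, stood at 386, 436, 241, 148 and 35.4 CPM in GFP- and at 101, 158, 212, 198 and 73.9 CPM in GFP+ libraries. It was lower in GFP+ cells of 17C1, 17C2 and 21A4 and higher in 21A5 and 21A7, and the groups overlapped. It did not pass over all mice (log2 fold change -0.41 ± 0.47, SE, n = 5, edgeR adjusted p = 0.737). It was lower within the 17C mice (-1.69, adjusted p = 0.000149), did not pass within the 21A mice (0.45, adjusted p = 0.39), and differed between the series (-2.13, interaction adjusted p = 0.029). Pfkl had 47.9 ± 6.90 CPM in GFP- and 67.6 ± 21.4 CPM in GFP+ cells (SD, n = 5) and did not pass (log2 fold change 0.45 ± 0.25, edgeR adjusted p = 0.45).

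Per length of exon, Pfkp made up 3.40% ± 2.93 of the phosphofructokinase signal in GFP- and 10.9% ± 1.38 in GFP+ cells (SD, n = 5). The lengths cover all annotated exons of a gene and were 13401 bases for Pfkp, 3340 for Pfkm and 6675 for Pfkl, so these shares depend on the annotation. The shares of Pfkm were 82.8% ± 16 and 71.8% ± 4.56 and those of Pfkl 13.8% ± 13.1 and 17.3% ± 4.36. The Pfkp share was 1.28%, 1.29%, 2.06%, 4.16% and 8.19% in the GFP- libraries and 12.3%, 11.8%, 8.70%, 11.1% and 10.7% in the GFP+ libraries. Every GFP+ share of the 3-gene sum thus lay above every GFP- share, by the narrow step from 8.19% to 8.70%. Pfkm had the largest per-length transcript share in all 10 libraries. By counts, without lengths, Pfkl made up 57.3% of its pair with Pfkm in the GFP- library of 21A7. The log2 ratio of Pfkp to Pfkm was higher in GFP+ cells of 5 of 5 mice, by 2.25 ± 1.44 on average (SD), from 0.15 in 21A7 to 3.64 in 17C1. Its exact sign-flip p was 0.0625, and its exact permutation p of 0.0159 became 0.175 after adjustment over the 11 ratios. In the ratio of this pair alone the groups overlapped, since the per-length share of Pfkp in the pair was 13.0% in GFP- cells of 21A7 and 10.2% in GFP+ cells of 21A4. By counts, without lengths, Pfkp made up 14.6% ± 13.6 of the pair in GFP- and 37.9% ± 3.79 in GFP+ cells (SD, n = 5). The ratio combines a gene that was higher in every mouse with one that was lower in 3 and higher in 2, and shifts averaged 3.58 over the 17C mice and 1.37 over the 21A mice. The Pfkl to Pfkm ratio shifted by 0.87 ± 1.06 (SD, n = 5), higher in 4 of 5 mice (exact sign-flip p = 0.125).

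**Figure D2:**
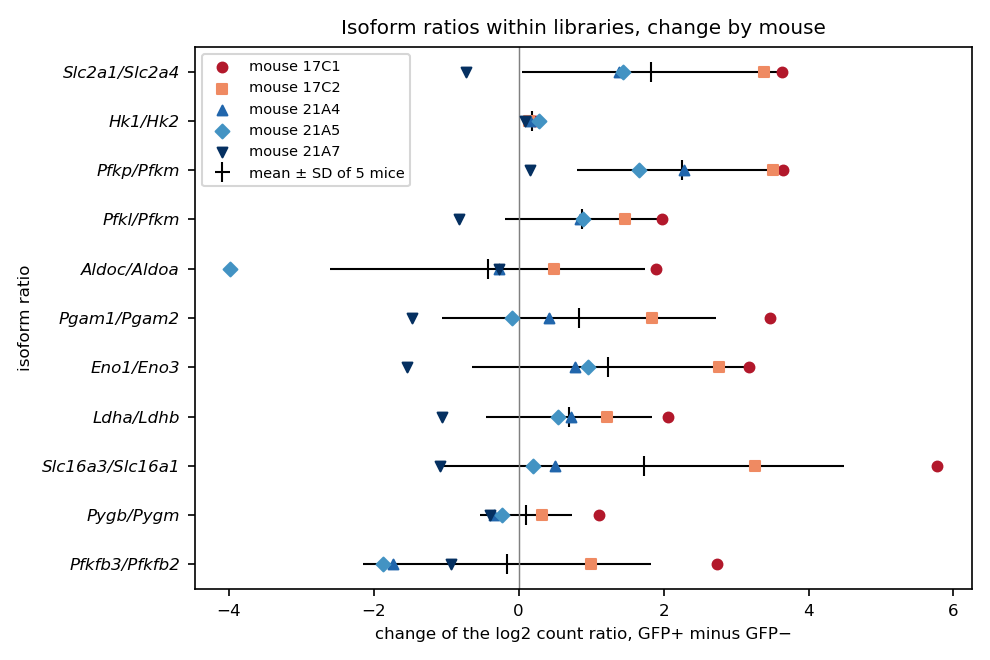
Change of the log2 ratio between paired forms of an enzyme or carrier, GFP+ minus GFP- within a mouse (horizontal axis), for 11 pairs (vertical axis), with 1 point per mouse and the mean with its SD as a bar. Pfkp/Pfkm and Hk1/Hk2 lie to the right of 0 in all 5 mice, and Slc2a1/Slc2a4 does so in 4, with 21A7 on the left.

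The bifunctional enzymes Pfkfb1, Pfkfb2 and Pfkfb3 set the level of the activator fructose 2,6-bisphosphate, and Pfkfb2 is the heart form. All were low. Pfkfb1 averaged 0.705 and 0.537 CPM in GFP- and GFP+ cells, Pfkfb2 2.87 and 1.99 CPM, and Pfkfb3 5.45 and 2.24 CPM. None passed over all mice (log2 fold changes -1.02, -0.57 and -0.92, edgeR adjusted p = 0.801, 0.677 and 0.58). Pfkfb3, an inducible form, was the only member called lower within the 21A mice (-1.69, adjusted p = 0.0393), and it was lower in GFP+ cells of 4 of 5 mice, 17C1 being the exception. Its GFP- levels of 0.538, 1.81, 5.44, 8.61 and 10.8 CPM had the order of the fibroblast marker sums of those libraries (214, 430, 8430, 14100 and 17400 CPM). The share of all tested genes with that order was not counted, and a link was not tested. With the non-myocyte score as a covariate its log2 fold change over all mice was 0.63 (edgeR adjusted p = 0.735). The difference between the series was not called for it (interaction adjusted p = 0.191).

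Pgk1, the kinase that makes the first ATP of the pathway and a long-known hypoxia target, stood at 110, 120, 65.9, 67.6 and 54.8 CPM in GFP- and at 235, 211, 157, 212 and 95 CPM in GFP+ libraries. Each mouse had more in its GFP+ cells, although the groups overlapped through the low GFP+ value of 21A7. The log2 fold change was 1.12 ± 0.24 (SE, n = 5 mice, edgeR adjusted p = 0.0776), which missed the threshold over all mice. Within each series it was called, at 0.97 (adjusted p = 0.0154) in the 17C and 1.25 (adjusted p = 0.0223) in the 21A mice. Pgam1, the widespread phosphoglycerate mutase, stood at 8.49, 8.35, 13.2, 16.1 and 26.4 CPM in GFP- and at 36.5, 22.2, 21.2, 27.7 and 34.9 CPM in GFP+ libraries. It was higher in 5 of 5 mice, least so in 21A7, with a log2 fold change of 1.06 ± 0.28 (SE, edgeR adjusted p = 0.139). Pkm, the pyruvate kinase of muscle and growing tissue, stood at 507, 537, 336, 293 and 286 CPM in GFP- and at 584, 725, 673, 750 and 444 CPM in GFP+ libraries. It was higher in 5 of 5 mice by 0.73 ± 0.29 on the log2 scale, without passing the test (edgeR adjusted p = 0.288). The table counts genes and not transcripts, so the 2 splice forms of Pkm, M1 and M2, cannot be told apart.

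Among the other enzymes between aldolase and enolase, several had opposite directions in the 2 series. Per kilobase of exon, Pgam2, Aldoa, Ldhb, Eno3 and Gapdh were the 5 most abundant members in GFP- cells, at mean levels of 176 to 262 CPM per kilobase. Aldoa, the muscle aldolase, and Gapdh had 825.6 ± 584.4 and 725.8 ± 480.5 CPM in GFP- and 892.2 ± 319.0 and 880.0 ± 289.7 CPM in GFP+ cells (SD, n = 5). Aldoa, Tpi1, Gapdh and Pgam2 were all lower in GFP+ cells of both 17C mice and higher in all 3 of the 21A mice, with overall log2 fold changes of 0.24 to 0.50 that did not pass (edgeR adjusted p = 0.635 to 0.851). Eno3, the muscle enolase, was lower within the 17C mice (-1.93, adjusted p = 3.85e-05) and at 0.48 within the 21A mice (adjusted p = 0.402), a difference that passed (-2.40, interaction adjusted p = 0.0277). Eno1, the widespread enolase, was higher within the 17C mice (1.04, edgeR adjusted p = 0.00862), and over all mice it stood at 105.3 ± 60.6 CPM in GFP- and 159.9 ± 20.9 CPM in GFP+ cells (log2 fold change 0.74 ± 0.27, adjusted p = 0.24). It was higher in 4 of 5 mice, the exception being 21A7.

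**Figure D3:**
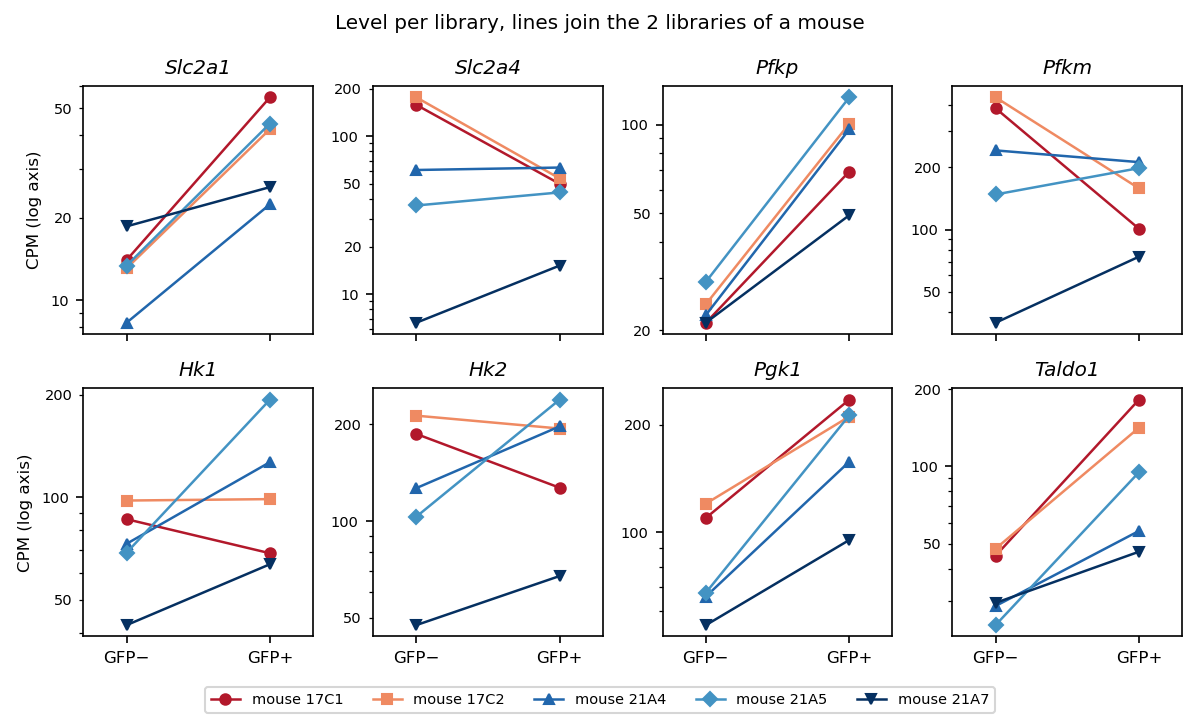
Level in CPM on a log axis (vertical) of 8 members in the GFP- and GFP+ libraries (horizontal), with 1 point per library and a line joining those of a mouse. Slc2a1 and Pfkp have all GFP+ points above all GFP- points, whereas the GFP- levels of Slc2a4 and Pfkm run from 6.58 to 176 CPM and from 35.4 to 436 CPM with 21A7 lowest.

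At the lactate step, Ldha favours making lactate and Ldhb, the main heart form, favours using it. Ldha stood at 372, 420, 169, 167 and 132 CPM in GFP- and at 517, 483, 316, 334 and 182 CPM in GFP+ libraries. It was higher in 5 of 5 mice by a log2 fold change of 0.61 ± 0.26 (SE, edgeR adjusted p = 0.304), which did not pass. Ldhb averaged 323.9 ± 239.6 CPM in GFP- and 223.9 ± 74.9 CPM in GFP+ cells (SD, n = 5), lower in GFP+ cells of the 17C mice (-1.29, edgeR adjusted p = 0.00227) and at 0.73 in the 21A mice (adjusted p = 0.184). That difference between series passed (-2.02, interaction adjusted p = 0.0367). Slc16a3 encodes MCT4, the lactate exporter of glycolytic cells, and stood at 0.658, 2.05, 6.41, 8.76 and 27.4 CPM in GFP- and at 28.3, 13.7, 11.5, 12.3 and 29.4 CPM in GFP+ libraries. The 17C mice started from the lowest GFP- levels and showed the widest differences, and in 21A7 both libraries were close to each other. Over all mice the log2 fold change was 1.64 ± 0.72 (SE, n = 5, edgeR adjusted p = 0.324), within the 17C mice 4.0 (adjusted p = 6.16e-05) and within the 21A mice 0.49 (adjusted p = 0.259). The difference of 3.51 between the series passed (interaction adjusted p = 0.0259). The GFP- levels of Slc16a3 and the GFP- macrophage and fibroblast marker sums were both lowest in the 17C mice and highest in 21A7. A link between them was not tested. With the score of non-myocyte markers as a covariate the log2 fold change of Slc16a3 was 3.48 (edgeR adjusted p = 0.143). Slc16a1 (MCT1), the more abundant carrier per length, did not pass (0.17 ± 0.29, edgeR adjusted p = 0.838).

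Glycogen genes showed no call over all mice. Gbe1, the branching enzyme, stood at 27.0, 21.4, 13.3, 11.4 and 5.69 CPM in GFP- and at 28.8, 30.7, 30.6, 38.7 and 7.04 CPM in GFP+ libraries. It was higher in 5 of 5 mice (log2 fold change 0.78 ± 0.28, SE, edgeR adjusted p = 0.248), and 21A7 had the lowest level in both fractions, far below the others in GFP+ cells. Pygm, the muscle glycogen phosphorylase, was lower within the 17C mice (-1.88, edgeR adjusted p = 0.000166) and at 0.75 within the 21A mice (adjusted p = 0.17), and Gys1, the muscle glycogen synthase, was at -0.84 (adjusted p = 0.0425) and 0.75 (adjusted p = 0.0801). Both differed between the series (Pygm -2.62, interaction adjusted p = 0.0259, and Gys1 -1.58, interaction adjusted p = 0.0332). Pygb, the brain form of the phosphorylase, was lower within the 17C mice as well (-1.16, edgeR adjusted p = 0.00478), and its ratio to Pygm moved by 0.10 ± 0.64 (SD, n = 5, exact sign-flip p = 0.875). Ugp2 and Pgm1, which link glucose phosphate to glycogen, had log2 fold changes of 0.08 ± 0.24 and 0.50 ± 0.31 and did not pass (edgeR adjusted p = 0.908 and 0.496). Summed over the 6 glycogen genes, the level was 778.6 ± 486.5 CPM in GFP- and 600.7 ± 220.5 CPM in GFP+ cells (SD, n = 5), lower in GFP+ cells of both 17C mice and higher in those of the 3 21A mice (log2 differences of -1.62, -0.86, 0.06, 0.78 and 1.0).

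The pentose phosphate pathway makes NADPH and ribose phosphate. Taldo1, transaldolase of its non-oxidative arm, stood at 44.9, 47.8, 28.6, 24.1 and 29.4 CPM in GFP- and at 182, 142, 56.1, 94.9 and 46.5 CPM in GFP+ libraries. Every mouse had more in GFP+ cells, and a single GFP+ value, that of 21A7, lay below the highest GFP- value. The log2 fold change was 1.44 ± 0.27 (SE, n = 5 mice, 2.72-fold), just outside the threshold (edgeR adjusted p = 0.0591), and it was called within the 17C (1.80, adjusted p = 6.65e-05) and the 21A mice (1.22, adjusted p = 0.0349). Pgd, an NADPH-producing step, stood at 10.8, 8.90, 12.8, 17.2 and 32.8 CPM in GFP- and at 26.2, 32.8, 18.9, 21.2 and 42.6 CPM in GFP+ libraries. It was higher in 5 of 5 mice by 0.87 ± 0.28 on the log2 scale (SE, edgeR adjusted p = 0.2) and was called within the 17C mice (1.59, adjusted p = 0.00402). G6pdx, the entry enzyme, and Tkt, transketolase, did not pass. Both were higher in GFP+ cells of the 17C mice and lower in those of the 21A mice, with overall log2 fold changes of 0.27 ± 0.57 and 0.04 ± 0.43 (edgeR adjusted p = 0.87 and 0.98). The sum of the 4 genes was 77.0 ± 27.2 CPM in GFP- and 154.1 ± 48.2 CPM in GFP+ cells (SD, n = 5), higher in 5 of 5 mice, from 0.18 in 21A7 to 1.84 in 17C1 on the log2 scale. Taldo1 was the largest part of this sum in GFP+ cells. Besides this branch, only the single-gene steps of Pgk1 and Pkm had a summed level that was higher in 5 of 5 mice among the 16 steps.

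The 2 series differed over the members as follows. Within the 17C mice, a fit with 2 mice only, 8 members were higher and 8 lower of 33 tested, beside 6.08% and 7.52% of all genes tested there. Within the 21A mice, 4 were higher (Slc2a1, Pfkp, Pgk1 and Taldo1) and 1 was lower (Pfkfb3) of 34, beside 2.67% and 4.05% of all genes (6.72% in either direction, and 13.6% in the 17C mice). The same 4 genes were among the 8 higher in the 17C mice, together with Pgam1, Eno1, Slc16a3 and Pgd. A difference between the series was called for 7 members, beside 7.62% of all tested genes, and 23 members had an unadjusted p under 0.05 for it, beside 25.7%. Of the 7, 6 had a lower GFP+ to GFP- ratio in the 17C mice (Slc2a4, Pfkm, Eno3, Ldhb, Gys1 and Pygm) and 1 a higher ratio (Slc16a3), directions called for 3.57% and 4.04% of all tested genes. The median log2 fold change of the members was -0.15 in the 17C mice and 0.75 in the 21A mice, against -0.01 and -0.06 for all genes tested there.

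Split by form, the 10 second-named genes of the ratios, which are mostly the muscle forms, included 0 called genes over all mice and 6 lower ones within the 17C mice (Slc2a4, Pfkm, Pgam2, Eno3, Ldhb and Pygm, against 7.52% of all genes tested there). Their median log2 fold change was -1.21 within the 17C series and 0.68 within the 21A series. The 10 tested first-named genes had medians of 0.89 and 0.70 in the 2 series, with 5 higher and 1 lower call in the 17C mice (6.08% and 7.52% of all genes). Of the remaining ratios, Eno1 to Eno3 shifted by 1.23 ± 1.88, Ldha to Ldhb by 0.70 ± 1.14 and Slc16a3 to Slc16a1 by 1.73 ± 2.76 (SD, n = 5), each higher in 4 of 5 mice with 21A7 as the exception. Their exact sign-flip p values were 0.25, 0.25 and 0.312. Pgam1 to Pgam2 shifted by 0.83 ± 1.89 and was higher in 3 of 5 mice (exact sign-flip p = 0.375). After adjustment over the 11 ratios, no sign-flip p was below 0.344 and no permutation p below 0.175.

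The summed level of sarcomere genes was lower in GFP+ libraries of the 17C mice and higher in those of the 21A mice. Fewer myocytes and less sarcomere transcript per myocyte cannot be told apart in this sum. The summed CPM of 16 sarcomere genes was different in GFP+ cells by -0.97 (mouse 17C1), -0.77 (17C2), 0.46 (21A4), 1.13 (21A5) and 1.50 (21A7) on the log2 scale. These changes depend on the TMM scaling. Its factors in GFP- and GFP+ libraries were 0.687 and 0.732 (17C1), 0.731 and 0.859 (17C2), 2 and 0.624 (21A4), 2.26 and 1.41 (21A5), and 3.31 and 0.241 (21A7). Measured against the sarcomere sum, Slc2a4, Pfkm, Eno3, Pygm and Pygb were lower in GFP+ cells of 5 of 5 mice, 5 of 34 members against 8.75% of all tested genes. No member was higher than the sarcomere sum in 5 of 5 mice, which 1.31% of tested genes were, and Slc2a1 was above it in 4 mice and below it in 21A7. With libraries scaled to the sarcomere genes, 0 members and 0 genes were called in edgeR, with 936 genes at an unadjusted p under 0.05. Pfkp was then at 1.58 on the log2 scale (adjusted p = 0.505) and Slc2a1 at 1.21 (adjusted p = 0.752). With the score of non-myocyte markers as a covariate, edgeR also called 0 genes (2091 at an unadjusted p under 0.05), at 1.62 for Pfkp (adjusted p = 0.135) and 1.48 for Slc2a1 (adjusted p = 0.15), while the members' median moved to -0.15, with 14 of 34 members above 0 in place of 25. With library totals alone in place of the TMM scaling, Pfkp was at 0.84 (adjusted p = 0.553), Slc2a1 at 0.51 (adjusted p = 0.699) and the members' median at -0.76, beside -1.15 for all tested genes.

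**Figure D4:**
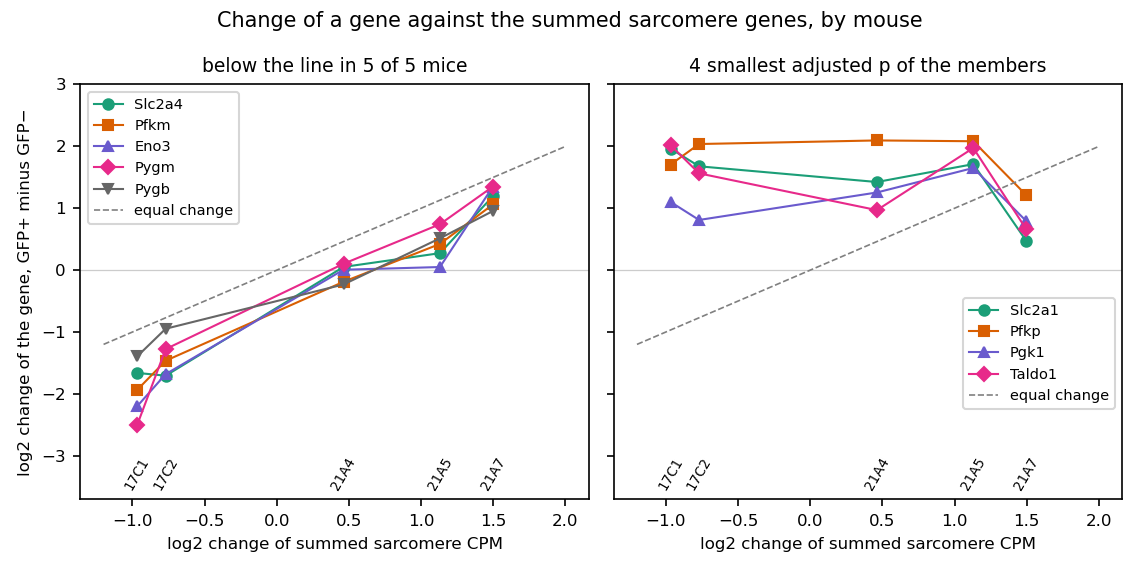
Log2 change of a gene (vertical axis) against the log2 change of the summed sarcomere CPM (horizontal axis), GFP+ minus GFP- within a mouse, with a dashed line of equal change. On the left the 5 members that lie below the line in all 5 mice climb with it, and on the right Pfkp, Slc2a1, Pgk1 and Taldo1 are above 0 in every mouse and above the line in all but 21A7.

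The rest of the pathway was taken from 9 lists of 86 genes, of which 76 were tested. Over all mice 1 of them was called higher and 0 lower, beside the 0.858% called in either direction among all genes. The called gene was Stbd1, which tethers glycogen to membranes for its breakdown in lysosomes. It stood at 7.90, 4.57, 5.32, 7.10 and 5.91 CPM in GFP- and at 30.2, 27.3, 10.7, 18.0 and 13.0 CPM in GFP+ libraries, so that every GFP+ value was above every GFP- value. Its log2 fold change was 1.59 ± 0.29 (SE, n = 5 mice), at the edge of the threshold (edgeR adjusted p = 0.0499, and 0.105 without the pairing). Leaving out any 1 mouse, DESeq2 size factors in edgeR, the sarcomere scaling and the marker covariate each left 0 of the list genes called. Among the other 18 tested glycogen regulators, Ppp1r3c, a subunit that directs protein phosphatase to glycogen, was higher in 5 of 5 mice without passing (1.79 ± 0.44, adjusted p = 0.118). It stood at 49.8, 67.0, 16.1, 22.1 and 1.95 CPM in GFP- and at 126, 101, 65.0, 59.2 and 28.8 CPM in GFP+ libraries.

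The list of pyruvate entry into mitochondria (carrier, dehydrogenase complex, its kinases and phosphatases) had 0 calls among 14 tested genes over all mice. Within the 17C mice 9 of the 14 were lower (7.52% of all genes tested there), and 6 differed between the series (7.62% of all tested genes), Mpc1, Mpc2, Pdhx, Pdk2, Pdk4 and Pdp2. Within the 21A mice Mpc1, a subunit of the pyruvate carrier, was called higher (1.22, edgeR adjusted p = 0.0301). Pdk4, the kinase that shuts the dehydrogenase when fat is the fuel, had 374, 257, 435, 88.5 and 48.6 CPM in GFP- and 61.3, 63.4, 236, 79.9 and 97.1 CPM in GFP+ libraries. It was lower in GFP+ cells of 4 of 5 mice, 21A7 being the exception, and did not pass over all mice (-0.94 ± 0.53, SE, edgeR adjusted p = 0.445). The malate-aspartate shuttle, which carries the electrons of glycolysis into mitochondria, had 0 calls among 7 tested genes over all mice, 5 lower within the 17C mice (7.52% of all genes tested there) and 4 that differed between the series (Mdh1, Mdh2, Got2 and Slc25a11, against 7.62% of all tested genes).

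Among other glucose carriers and their regulators, 0 of 9 tested genes were called. Txnip, a glucose-induced brake on glucose uptake, was lower in 4 of 5 mice (-0.87 ± 0.38, SE, edgeR adjusted p = 0.326) and differed between the series (interaction adjusted p = 0.0449). Of 7 other glycolytic forms and regulators 0 were called, and Hk3, a hexokinase of blood cells, was lower in 5 of 5 mice without passing (-3.20 ± 0.83, SE, edgeR adjusted p = 0.133), at 0 CPM in the GFP+ libraries of both 17C mice. Hk3 levels in GFP- cells ran from 0.551 to 9.53 CPM and, like the macrophage marker sum, were highest in 21A7, a link that was not tested. The 3 tested lactate partners had 0 calls. Slc16a7 (MCT2) was lower in 5 of 5 mice without passing (-1.83 ± 0.70, SE, edgeR adjusted p = 0.269), at 0.850 to 7.72 CPM in GFP- and 0.238 to 0.827 CPM in GFP+ libraries. Its groups did not overlap, which held with GFP+ lower for 0.916% of all tested genes. The 6 tested genes of the pentose branch, 6 of the hexosamine branch and 5 of the polyol and glycerol phosphate branch had 0 calls over all mice as well. Gfpt2, a form of the entry enzyme of the hexosamine branch, was higher within the 17C mice (3.57, edgeR adjusted p = 7.74e-05) and differed between the series (interaction adjusted p = 0.0248). Sord, which turns sorbitol into fructose, was lower within the 17C mice (-2.77, adjusted p = 1.29e-06) and differed between the series as well (interaction adjusted p = 0.0138).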

How the data were processed

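RNA of sorted GFP+ and GFP- cells of 5 mice was preamplified with SMARTer and made into Nextera XT libraries, per the labels' protocols. The deposited values are raw read counts per gene for 10 libraries, made by the authors on GRCm39 with featureCounts (Subread 2.0.1), STAR 2.7.9a and fastp 0.23.1, tools listed in the submitters' processing notes. Not given in the sources used here are the strand setting, the gene models and the handling of multi-mapping reads. No molecular identifiers are named, so amplified copies count as separate reads.

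Counts were tested with edgeR 4.0.16 (two-sided quasi-likelihood F-test in R 4.3.3, with TMM scaling, filterByExpr and Benjamini-Hochberg adjustment over 12115 genes). The mouse was a block, since both libraries of a mouse carry 1 animal identifier. Both libraries of a mouse were centred on their group and correlated over genes, which gave r from 0.0741 (21A5) to 0.637 (21A7). Libraries of different mice were not correlated, so these values cannot show whether the pairs are right. No 2 libraries held identical values. The difference between series was tested as an interaction term. SE is the log2 fold change over the square root of F. Form ratios used counts plus 0.5. CPM used TMM-scaled totals, and log2 CPM differences a prior count of 2. Exon lengths are the union of all annotated exons of a gene in GENCODE M21. Promoters come from RefSeq, and both are on the earlier build GRCm38.

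Alternatives were no pairing, DESeq2 1.42.0, limma 3.58.1 voom, other scalings and filters, a marker covariate, and each series or mouse left out. The members and lists were chosen with earlier results of these data known. Values for each mouse are given for Slc2a1, Slc2a4, Hk1, Hk2, Pfkp, Pfkm, called members, and members at an unadjusted p under 0.05 that were higher or lower in 5 of 5 mice. The per-mouse values of Stbd1, Ppp1r3c and Pdk4 were chosen after they were seen. The paired fit was run on simulated counts with the same spread for every gene and shifts added to some. The simulation held no difference between series or in the make-up of libraries, so it checks the code and not the calls made here.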

Additional observations from a re-analysis of the deposited data

Results flagged for a closer look

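In 7 members the change from GFP- to GFP+ cells differed between the 17C and the 21A mice in the edgeR interaction test (adjusted p under 0.05, called for 7.62% of all tested genes). The differences, 17C minus 21A on the log2 scale, were -2.18 for Slc2a4, -2.13 for Pfkm, -2.40 for Eno3, -2.02 for Ldhb, 3.51 for Slc16a3, -1.58 for Gys1 and -2.62 for Pygm.

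In 9 further members every 17C mouse moved one way and every 21A mouse the other, with a difference that did not pass the interaction test. It was -1.13 for Hk2, -1.64 for Aldoa, -1.38 for Tpi1, -1.68 for Gapdh, -1.90 for Pgam2, -1.07 for Slc16a1 and -0.90 for Ugp2. It was positive, at 2.32 and 1.89, for G6pdx and Tkt of the pentose phosphate pathway. How many of all tested genes split in this way was not counted, so the 9 members have no share to be set against. In the edgeR interaction test 25.7% of all tested genes had an unadjusted p under 0.05.

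A library far from the other 4 of its group was found in 5 of 68 groups examined, and chance alone gives about 1 in 20. All 5 were libraries of mouse 21A7. Its GFP+ library was lowest for Slc2a4 (15.2 CPM), Ugp2 (19.3 CPM) and Gbe1 (7.04 CPM). Its GFP- library was lowest for Pfkfb1 (0.0362 CPM) and highest for Eno1 (213 CPM).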

How the results depend on the processing

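With the mouse as a block, 2 members were called higher and 0 lower, among 104 called genes. Without pairing (no replicate block) 1 member and 10 genes were called. DESeq2 called 6 members higher and 886 genes, voom with quality weights 7 and 1163, and no filter on low counts 6 and 818. Library totals alone called 0 members and 33 genes, with the members' median at -0.76 and that of all genes at -1.15. Of the calls, 79.8% were higher in GFP+ cells with TMM, 50.8% in DESeq2 and 15.2% with library totals. Scaling to sarcomere genes moved the all-gene median to -0.34 and called 0 members and 0 genes in edgeR, as did the marker covariate (936 and 2091 genes at an unadjusted p under 0.05). The 17C mice alone gave 8 members higher, 8 lower and 1510 genes, and the 21A mice alone 4, 1 and 889. Within the 17C mice Pgam2 (-0.89) and Gys1 (-0.84) were called lower, the opposite of their sign over all mice. Leaving out 1 mouse gave 0 to 2 members and 0 to 173 genes, with 0 genes (1492 at an unadjusted p under 0.05) without 17C2, 1 without 21A4, 6 without 21A5, 71 without 21A7 and 173 without 17C1. Of the 34 tested members, 7 kept their sign under every alternative run and 27 changed it under at least 1. The cause of these shifts was not tested. Depth limits Pfkfb1, Pfkfb2, Aldoc and Slc16a7, all at a few CPM or less. Some differences between the series also rest on few counts in the GFP- libraries of the 17C mice. Slc16a3 had 11 (17C1) and 26 (17C2) counts there, G6pdx 31 and 4, and Gfpt2 8 and 73.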
